A study of Mus musculus with 27 samples.

Results

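The genes described here are 33 mouse genes of the type I interferon response: the ligand gene Ifnb1, the receptor genes Ifnar1 and Ifnar2, the transducer gene Stat2 and 29 genes known to be induced by interferon. They were followed in polyadenylated RNA from mouse endothelial cells (EC), which line blood vessels, and from mouse peritoneal macrophages (PMAC), the phagocytes of the abdominal cavity. A listed gene was analysed in a table of values where its mean normalized count over the table's libraries was at least 10, and 31 of the 33 met this in each of the 3 tables. Each table listed 55291 genes, of which 13630 in the PMAC table, 15595 in the table of chylomicron and control EC and 14217 in the table of SRBI knockdown EC reached the same mean. Ifnb1 stayed below it in every table, Ifi44 in PMAC, and Zbp1 in both EC tables. Around the limit in PMAC, Ifi44 lay just outside with a mean of 9.87, and Mx2 (47.1) and Ifit3 (52.7) were the nearest inside. No member entered through a single group: the lowest group mean of a PMAC member tested was 17.8, for Ifit3 in SRBI knockdown.

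In each cell type 3 libraries were labelled SRBI-knockdown, 3 chylomicron-treated and 3 control, which gave 18 of the series' 27 libraries. SRBI names a lipoprotein receptor of the scavenger family, the product of Scarb1, and chylomicrons are the lipoproteins in which fat absorbed by the gut travels. The control libraries bear neither a treatment nor a genotype label. No label gives a strain, an age, a dose, a duration or the way the knockdown was made. Left unstated for the PMAC libraries are the cells in which SRBI was reduced, whether knockdown also came with chylomicrons, and whether macrophages labelled chylomicron-treated received chylomicrons themselves or material from treated EC, although the series title speaks of vesicles from treated EC acting on macrophages. The only cell lines a protocol mentions are called PL and PLA, with no link to a library. Since separate cultures or animals are not stated, the p-values below measure the spread between libraries, which may be technical.

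Type I interferons are secreted proteins that bind the receptor pair IFNAR1 and IFNAR2. The receptor activates the kinases JAK1 and TYK2, which phosphorylate STAT2, and STAT2 joins IRF9 in the complex ISGF3. ISGF3 binds interferon-stimulated response elements, short DNA motifs in front of the induced genes, whose products sense viral nucleic acid, block viral translation and assembly, or adjust the signal itself. Macrophages and endothelial cells both respond to interferon and keep a low basal expression of many of these genes. IRF7, itself induced by interferon, drives transcription of interferon genes in a positive loop.

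The core of such an element reads GAAANNGAAA, where N is any base, and its reverse complement reads TTTCNNTTTC. Promoter sequences of RefSeq on GRCm38.p6, covering 250 bases before to 50 bases after each transcript start, were found for 24 of the 33 members; those without one were Parp9, Usp18, Parp14, Zbp1, Mx1, Rtp4, Oas2, Dhx58 and Mx2. The motif stood on either strand in the promoters of 12 of these 24 members, against 3.99% of the 27025 genes in the same set. In 9 of the 12 a match lay wholly before the start. Below are windows of 60 bases around those matches, written 5′ to 3′ on the strand of the gene and ending before the start, with the matching bases in capitals; overlapping matches run together. They are shown because they carry the motif that the members' shared regulation is known for. The first group holds the 6 whose RNA was lower in SRBI knockdown than in chylomicron PMAC, as given further on.
Isg15: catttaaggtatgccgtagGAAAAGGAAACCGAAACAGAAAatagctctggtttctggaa
Ifit1: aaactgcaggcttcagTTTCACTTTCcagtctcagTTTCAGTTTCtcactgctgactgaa
Ifit3: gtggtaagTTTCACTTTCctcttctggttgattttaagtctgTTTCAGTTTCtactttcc
Rsad2: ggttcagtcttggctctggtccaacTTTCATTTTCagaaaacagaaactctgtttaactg
Oas3: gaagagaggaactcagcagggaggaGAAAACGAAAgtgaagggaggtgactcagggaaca
Bst2: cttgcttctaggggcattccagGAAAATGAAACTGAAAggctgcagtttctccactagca
The second group holds the 3 whose RNA did not pass the test in that comparison.
Oas1a: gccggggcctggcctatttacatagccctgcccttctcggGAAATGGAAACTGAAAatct
Stat2: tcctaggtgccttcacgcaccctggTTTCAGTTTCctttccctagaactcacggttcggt
Trim30a: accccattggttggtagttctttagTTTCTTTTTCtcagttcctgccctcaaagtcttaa
On GRCm38.p6 the windows cover chr4:156200856-156200915 (minus strand) for Isg15, chr19:34640769-34640828 (plus strand) for Ifit1, chr19:34583365-34583424 (plus strand) for Ifit3, chr12:26456538-26456597 (minus strand) for Rsad2, chr5:120777700-120777759 (minus strand) for Oas3, chr8:71537565-71537624 (minus strand) for Bst2, chr5:120907526-120907585 (minus strand) for Oas1a, chr10:128270251-128270310 (plus strand) for Stat2 and chr7:104465195-104465254 (minus strand) for Trim30a. Isg15 held 3 overlapping matches from position -78 to -57 relative to its start, and Ifit1 and Ifit3 held 2 each. Of these windows, that of Stat2 held the match farthest from a start, at -222 to -213. Of the 12 members with the motif 7 were lower in SRBI knockdown than in chylomicron PMAC. Of the 10 tested members whose promoter held no match 8 were, and so were all 9 without a promoter sequence. The share of all genes lower in that comparison was 5.59%. A match describes these letters only, and its absence from the window says nothing about binding.

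Reads assigned to genes, in units of 1000000, came to 38.3 to 55.9 per library in SRBI knockdown PMAC, 30.5 to 38.4 in chylomicron PMAC and 42.8 to 46.0 in control PMAC. The EC libraries held 16.8 to 20.7 of these units in SRBI knockdown, 41.9 to 45.5 with chylomicrons and 40.0 to 46.7 in controls. Scarb1, the gene named by the knockdown label, had 1875, 1770.5 and 2149 normalized counts in SRBI knockdown PMAC, 1571, 1832 and 1737 in chylomicron PMAC and 2281, 2287 and 2355 in control PMAC. It was thus lower than in controls under both labels (log2 fold change -0.26, adjusted p = 0.0127 for SRBI knockdown; -0.43, adjusted p = 1.98e-04 for chylomicron), and SRBI knockdown PMAC were not shown to hold less of it than chylomicron PMAC. In EC it averaged 117 ± 3.14 RPM (reads per 1000000 reads assigned to genes) with SRBI knockdown and 281 ± 26.7 RPM in controls (SD, n = 3 each). The 14 macrophage markers were all detected in every PMAC group and summed to 32639 to 36412 RPM in SRBI knockdown, 28416 to 30539 RPM in chylomicron and 48435 to 51168 RPM in control libraries. The 5 monocyte markers ran the other way, at 309 to 368 RPM in SRBI knockdown, 219 to 276 RPM in chylomicron and 81.5 to 86.0 RPM in control PMAC. Plasmacytoid dendritic cells are a major source of type I interferon, and their 8 markers summed to 5.59 to 6.34 RPM in SRBI knockdown, 4.92 to 6.54 RPM in chylomicron and 5.47 to 6.94 RPM in control PMAC, with the defining marker Siglech at 0 in all 9 libraries. The 6 markers of T and NK cells summed to at most 0.156 RPM in a PMAC library. In bulk RNA of this kind, fewer cells of a type and less RNA per cell cannot be told apart.

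Almost no read was assigned to an interferon ligand gene. Ifnb1, which encodes interferon beta, had 0 reads in the 3 SRBI knockdown PMAC libraries, 0, 0 and 1.09 normalized counts in chylomicron PMAC, and 0, 0 and 3.38 in control PMAC. In EC it was seen in 1 library, with 1.03 normalized counts in a chylomicron library, and in no control or SRBI knockdown library. All 13 numbered interferon alpha genes stood at 0 reads in all 18 libraries, while Ifnab had 2.09 normalized counts in control EC replicate 1. Among 20 interferon ligand genes other than Ifnb1, of the alpha, gamma, lambda and minor families, 15 were at 0 throughout. The highest value in any library was 4.25 normalized counts, for Ifne in EC. A count of 0 allows up to 3 reads, which is 0.0537 to 0.179 RPM depending on the library. These limits cover counting error only. They do not cover reads that match several similar genes, whose handling is not given in the sources used here.

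Both receptor genes were expressed in every library and were higher in both labelled PMAC groups than in controls. Ifnar2, which encodes the ligand-binding chain, had 12887, 11804 and 13090.0 normalized counts in SRBI knockdown PMAC, 14445, 16227 and 14109 in chylomicron PMAC and 9115, 8428 and 8164 in control PMAC. No library of either labelled group fell in the control range. The log2 fold change was 0.80 for chylomicron against control (SE 0.06, adjusted p = 9.84e-09) and 0.56 for SRBI knockdown against control (SE 0.06, adjusted p = 1.06e-06). Between SRBI knockdown and chylomicron PMAC it was -0.24, SE 0.06, adjusted p = 0.0132; without chylomicron replicate 2 this became -0.18 (adjusted p = 0.0561) and without SRBI knockdown replicate 2 -0.20 (adjusted p = 0.0713). Ifnar1, the chain that binds TYK2, had 14689.8, 14156 and 14659.9 normalized counts in SRBI knockdown PMAC, 15873, 15575 and 14808 in chylomicron PMAC and 12179, 12711 and 11661 in control PMAC. Again both labelled groups lay above all controls, with log2 fold changes of 0.34, SE 0.05, adjusted p = 1.51e-05 for chylomicron and 0.25, SE 0.05, adjusted p = 3.83e-04 for SRBI knockdown. The 3 PMAC comparisons share libraries in pairs, so their values are given side by side and are not independent of each other.

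In chylomicron PMAC, Irf7 was higher than in controls, Irf9 was higher under some settings, and Stat2 passed no test. Stat2 had 1430.1, 1421 and 1349 normalized counts in SRBI knockdown PMAC, 1564, 1461 and 1530.5 in chylomicron PMAC and 1399, 1464 and 1545 in control PMAC, and passed no test (log2 fold change 0.048, 95% interval -0.09 to 0.19, for chylomicron against control). Irf9, the DNA-binding part of ISGF3, was higher in chylomicron than in control PMAC by 0.29 on the log2 scale (adjusted p = 0.00823), with 2015, 2004 and 1697 normalized counts against 1635, 1588 and 1446. This call ended with library-total scaling, at 0.17 (adjusted p = 0.079), without the empirical Bayes trend (adjusted p = 0.0501), and without chylomicron replicates 1 and 2, at 0.13 (adjusted p = 0.381). In SRBI knockdown PMAC it had 1738, 1530.3 and 1623 normalized counts and passed neither of that group's tests.

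Irf7 separated chylomicron PMAC from both other groups. It had 1161, 1134 and 1323 normalized counts in SRBI knockdown PMAC, 3407, 3035 and 2526 in chylomicron PMAC and 1080.5, 1136 and 932 in control PMAC. The chylomicron libraries lay apart from the other 6, which overlapped each other. Its log2 fold change was -1.30 for SRBI knockdown against chylomicron (SE 0.10, adjusted p = 3.54e-07), 1.504 for chylomicron against control (SE 0.10, adjusted p = 2.31e-09) and 0.20 for SRBI knockdown against control (95% interval -0.01 to 0.41, adjusted p = 0.144).

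**Figure D1:**
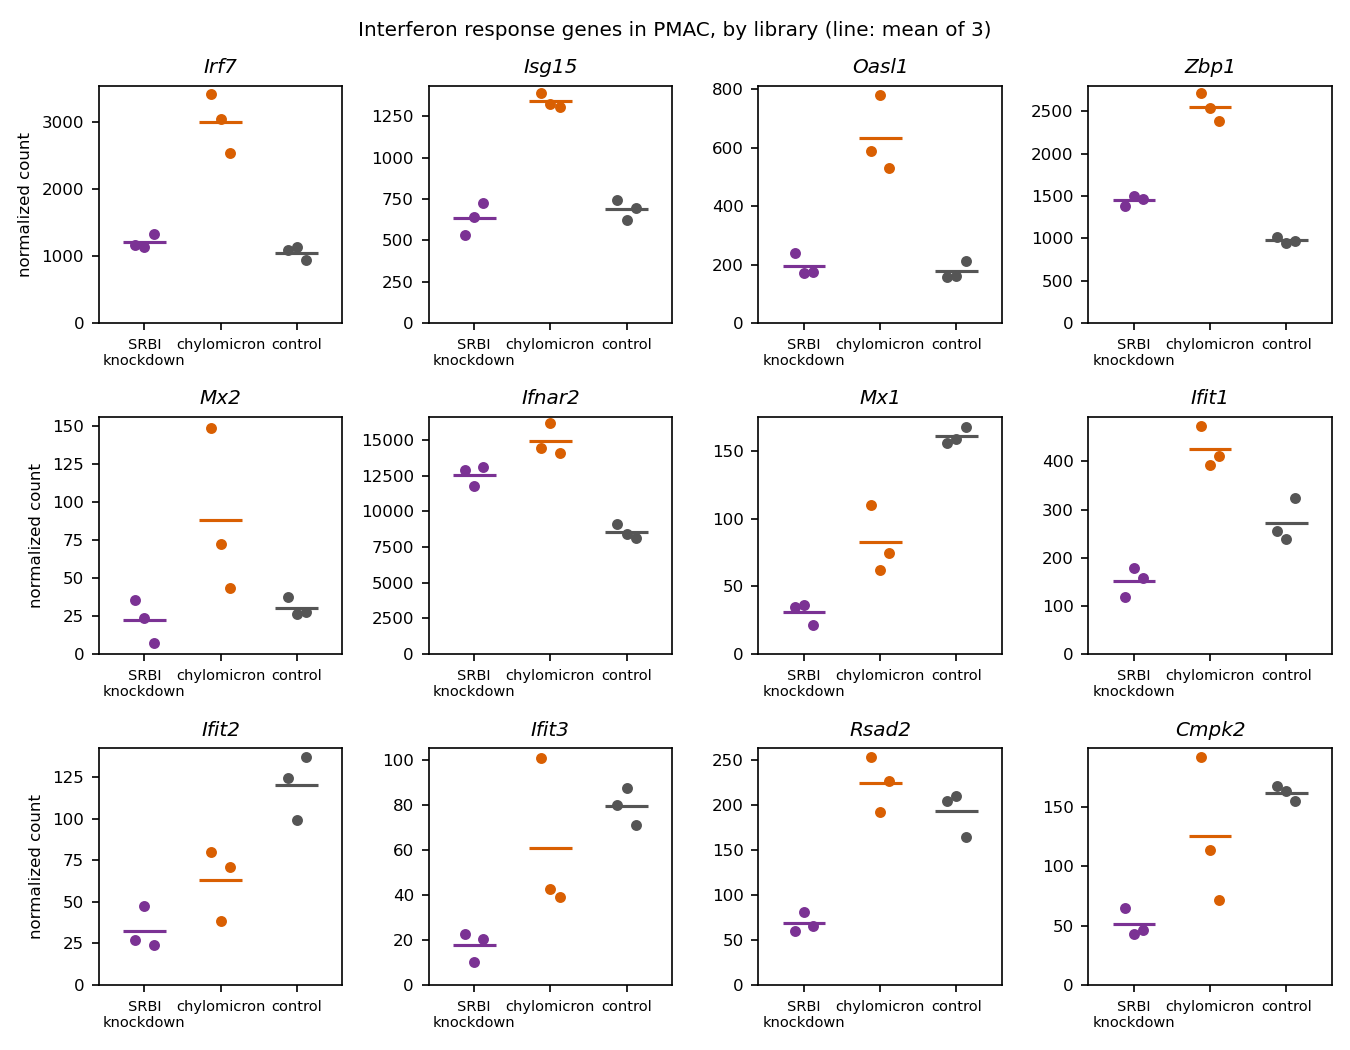
Normalized counts (vertical axes, linear, from 0) of Irf7 and 11 listed genes in the 3 libraries of SRBI knockdown, chylomicron and control PMAC; points are libraries and lines group means. Irf7, Isg15, Oasl1 and Zbp1 stand highest in all 3 chylomicron libraries, while Mx1 and Ifit2 are lower than controls in all 6 labelled libraries.

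Across the members, chylomicron PMAC held more interferon-response RNA than control PMAC for most genes. The exceptions by group mean were Mx1, Oas3, Ifit2, Ifit3 and Cmpk2. Of the 31 members tested, 19 were higher in chylomicron than in control PMAC and 2 were lower at an adjusted p under 0.05 (limma, Benjamini-Hochberg over all genes tested), and 10 did not pass. Over all genes 16.0% were higher and 17.4% lower. The median log2 fold change of the members was 0.48, against -0.01 over all genes. Scaling reads to library totals instead shifted the median of all genes from -0.01 to -0.13, left the 21 calls as they were and gave a members' median of 0.36. Summed macrophage markers were lower and summed monocyte markers higher in both labelled groups than in control PMAC, as given above; their part in the differences described here was not tested.

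SRBI knockdown PMAC stood below chylomicron PMAC for nearly the whole list. Of the 31 members tested 24 were lower and 0 higher, where over all genes 5.59% were lower and 5.60% higher; edgeR and DESeq2 also called 0 members higher, and 0 were higher at an unadjusted p under 0.05. The log2 fold change was negative for 30 of 31 members, Ddx58 being the exception at 0.048, and its median was -0.77, against 0.01 over all genes. In 27 of 31 members all 3 SRBI knockdown libraries lay below all 3 chylomicron libraries, a pattern found in 13.6% of all genes. The 7 that did not pass were Ifit2, Oas1a, Trim30a, Stat2, Ifnar1, Eif2ak2 and Ddx58. The count depended on single libraries of both groups and on the variance model. With 1 library left out it was 18, 22 and 23 without chylomicron replicate 1, 2 and 3, and 20, 17 and 20 without SRBI knockdown replicate 1, 2 and 3. Without the empirical Bayes trend 14 were lower, and Cmpk2, Ifi35, Ifit3, Ifnar2, Isg20, Mx2, Oas2, Oas3, Parp9 and Usp18 lost their calls. Chylomicron replicate 1, the highest of its group in 23 of 31 members, and replicate 2 are the shallowest PMAC libraries, and without both 14 members were lower and 0 higher, in a comparison with 1 chylomicron library whose spread is assumed to be that of the other groups.

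Against controls, 5 members were higher in SRBI knockdown PMAC, 9 lower and 17 did not pass, with 14.7% of all genes higher and 15.5% lower. The 5 higher are near the share over all genes and are no result about the list. The median log2 fold change was 0.01, equal to that over all genes at 2 decimals. The higher ones were Oas2, Zbp1, Ifnar2, Parp9 and Ifnar1, and the lower ones Mx1, Ifit3, Ifit2, Cmpk2, Rsad2, Oas3, Ifit1, Usp18 and Rtp4. Ordered by group mean, 15 members ran chylomicron, SRBI knockdown, control from high to low, 10 ran chylomicron, control, SRBI knockdown, 5 ran control, chylomicron, SRBI knockdown (Mx1, Oas3, Ifit2, Ifit3 and Cmpk2), and Ddx58 ran SRBI knockdown, chylomicron, control. These orders follow group means, and many neighbours in them did not pass a test.

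**Figure D2:**
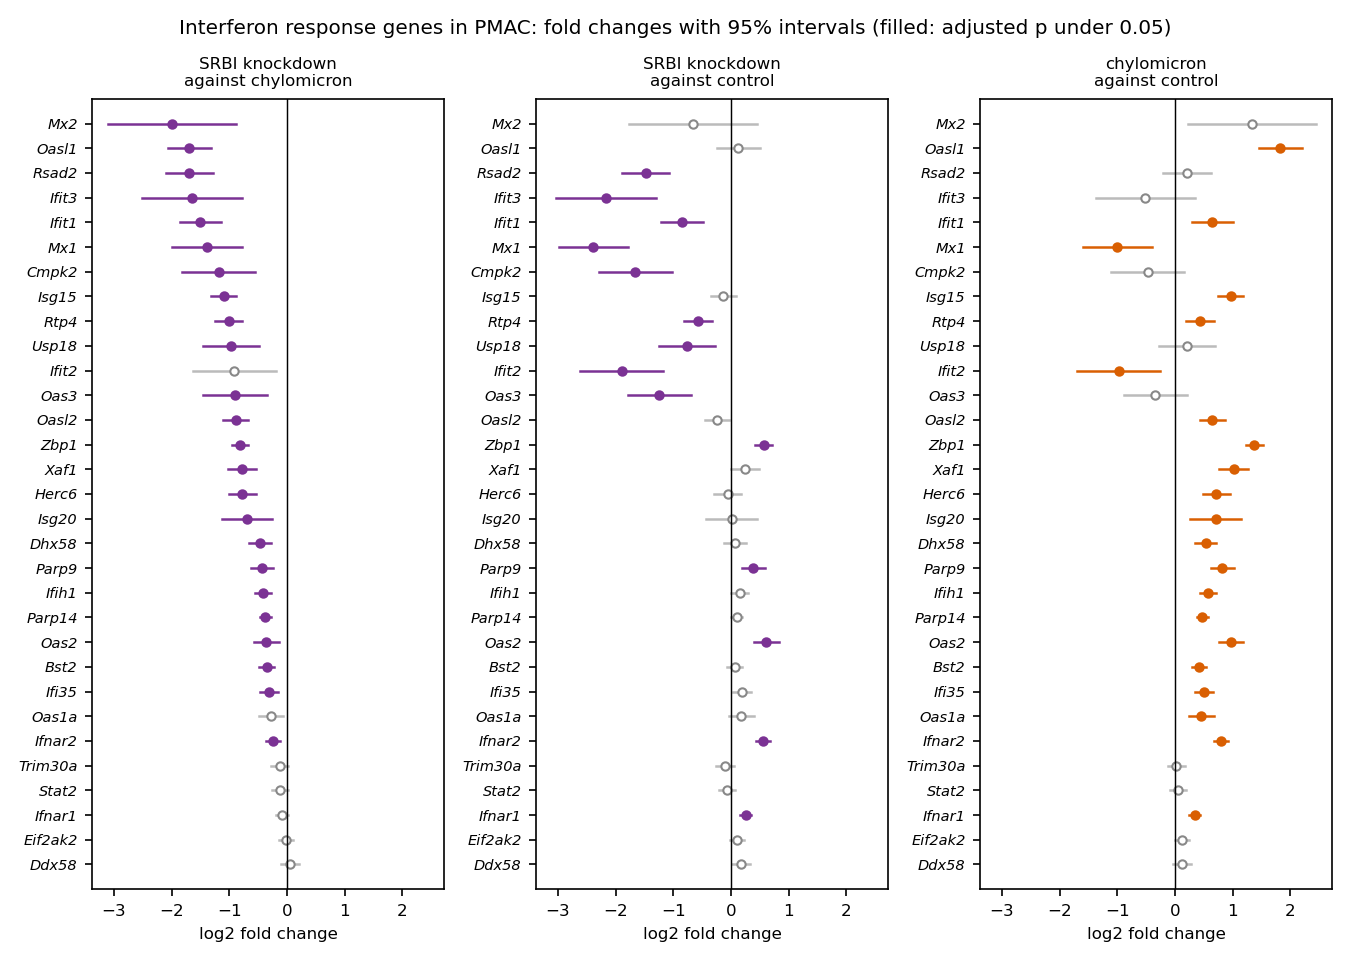
Log2 fold changes (horizontal axes) of the 31 PMAC members with 95% intervals, for SRBI knockdown against chylomicron, SRBI knockdown against control and chylomicron against control, rows in the same order in each panel; filled points have an adjusted p under 0.05. In the first panel 30 of 31 points lie below 0, in the second they fall to both sides, and in the third 26 lie above 0.

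Among the sensors of nucleic acid, Zbp1 differed in every pair of groups. Its product recognises left-handed nucleic acid and can trigger necroptosis. Zbp1 had 1382, 1496 and 1468 normalized counts in SRBI knockdown PMAC, 2712, 2545 and 2386 in chylomicron PMAC and 1017, 950.4 and 969.5 in control PMAC. The 3 groups did not overlap, and each pair differed: -0.81, SE 0.07, adjusted p = 6.59e-07 for SRBI knockdown against chylomicron, 1.38, SE 0.07, adjusted p = 3.61e-11 for chylomicron against control and 0.56, SE 0.07, adjusted p = 3.93e-06 for SRBI knockdown against control. Ifih1, which encodes the long double-stranded RNA sensor MDA5, had 2101, 2183 and 2070.4 normalized counts in SRBI knockdown PMAC, 3167, 2619.9 and 2729 in chylomicron PMAC and 1869, 1958 and 1898 in control PMAC. Chylomicron PMAC exceeded both other groups (-0.42, adjusted p = 5.54e-04, for SRBI knockdown against chylomicron; 0.57, adjusted p = 3.26e-06, for chylomicron against control). Dhx58, encoding the regulatory helicase LGP2, showed the same calls with log2 fold changes of -0.46 and 0.53. Ddx58, which encodes the sensor RIG-I of short uncapped RNA ends, overlapped between all 3 groups, at 2465, 2193 and 2473 normalized counts in SRBI knockdown, 2229, 2558 and 2121 in chylomicron and 2039, 2199.8 and 2072 in control PMAC.

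The ISG15 genes were higher in chylomicron PMAC than in SRBI knockdown PMAC throughout. Isg15 encodes a ubiquitin-like protein that is joined to other proteins. It had 533, 639 and 724 normalized counts in SRBI knockdown PMAC, 1390.5, 1323 and 1309 in chylomicron PMAC and 742, 625 and 698 in control PMAC, so that the chylomicron libraries stood apart while the other groups overlapped. The log2 fold change was -1.09, SE 0.10, adjusted p = 3.25e-06 for SRBI knockdown against chylomicron and 0.96, SE 0.10, adjusted p = 9.96e-07 for chylomicron against control; SRBI knockdown against control gave -0.13 (95% interval -0.35 to 0.09). Herc6, the mouse ligase for ISG15, was lower in SRBI knockdown than in chylomicron PMAC (-0.77, adjusted p = 1.55e-04) and higher in chylomicron than in control PMAC (0.72, adjusted p = 5.23e-05). Usp18, whose product removes ISG15 and blocks signalling at IFNAR2, had 94.8, 106 and 156 normalized counts in SRBI knockdown, 313, 236 and 163 in chylomicron and 212, 197 and 185 in control PMAC. It was lower in SRBI knockdown than in chylomicron PMAC (-0.98, adjusted p = 0.0104) and than in control PMAC (-0.77, adjusted p = 0.0173), and chylomicron and control PMAC overlapped. The Usp18 difference from control ended without SRBI knockdown replicate 1 or 2 or control replicate 1 (adjusted p from 0.0624 to 0.0909), and that from chylomicron became -0.83 (adjusted p = 0.0655) without SRBI knockdown replicate 1.

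The 2′-5′ oligoadenylate synthetase family makes the messenger that activates RNase L, and its members did not move alike. Oasl1, an inactive relative that in mice represses translation of Irf7, had 238, 172 and 173 normalized counts in SRBI knockdown PMAC, 589, 779.9 and 532 in chylomicron PMAC and 159, 161 and 211 in control PMAC. Chylomicron libraries lay well above the other 6, which overlapped, with log2 fold changes of -1.70, SE 0.18, adjusted p = 8.14e-06 for SRBI knockdown against chylomicron and 1.83, SE 0.18, adjusted p = 2.82e-07 for chylomicron against control. Oas2 had 862, 897 and 832 normalized counts in SRBI knockdown, 1083, 1132 and 1102 in chylomicron and 541, 491 and 676 in control PMAC. Both labelled groups were above controls (chylomicron 0.97, SE 0.10, adjusted p = 6.96e-07; SRBI knockdown 0.61, SE 0.10, adjusted p = 1.38e-04), and SRBI knockdown was below chylomicron (-0.36, adjusted p = 0.0303). That last call ended when any 1 of the 6 libraries compared was left out, with adjusted p from 0.0516 to 0.0982. Oas3 went the other way: it had 101, 64.0 and 109.7 normalized counts in SRBI knockdown PMAC, 177, 229 and 116 in chylomicron PMAC and 196, 267 and 183 in control PMAC. SRBI knockdown PMAC were lower than controls (-1.24, SE 0.26, adjusted p = 0.00126), and chylomicron and control PMAC overlapped. SRBI knockdown against chylomicron gave -0.90, SE 0.26, adjusted p = 0.0325, and lost its call without chylomicron replicate 1 or 2 or without SRBI knockdown replicate 1 or 2 (adjusted p from 0.0632 to 0.163). Oasl2 and Oas1a were higher in chylomicron than in control PMAC (log2 fold changes 0.65 and 0.46), and Oasl2 was lower in SRBI knockdown than in chylomicron PMAC (-0.89, adjusted p = 1.61e-05).

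The 3 Ifit genes, whose products bind viral RNA and block its translation, lie together on chromosome 19 and still differed. Ifit1 had 117, 179 and 159 normalized counts in SRBI knockdown PMAC, 475, 392 and 411 in chylomicron PMAC and 256, 239 and 323 in control PMAC. The 3 groups did not overlap, with chylomicron highest and SRBI knockdown lowest (-1.50, SE 0.17, adjusted p = 2.09e-05 between them, 0.65, SE 0.17, adjusted p = 0.00717 for chylomicron against control). Ifit2 had 26.9, 47.2 and 24.05 normalized counts in SRBI knockdown PMAC, 80.01, 38.2 and 70.7 in chylomicron PMAC and 124, 99.4 and 137 in control PMAC. Here controls were highest: the log2 fold change was -1.89, SE 0.34, adjusted p = 3.29e-04 for SRBI knockdown against control and -0.98, SE 0.34, adjusted p = 0.0354 for chylomicron against control. The chylomicron call ended without chylomicron replicate 2, at -0.66 (adjusted p = 0.132), and without control replicate 1, 2 or 3, at -0.95 (adjusted p = 0.0969), -1.10 (adjusted p = 0.0505) and -0.88 (adjusted p = 0.124). It also ended with no filter on low values, without the trend and with the replicate block (adjusted p from 0.0539 to 0.094). Ifit3 had 22.6, 10.4 and 20.3 normalized counts in SRBI knockdown PMAC, 101, 42.5 and 39.1 in chylomicron PMAC and 80, 87.6 and 70.9 in control PMAC. The SRBI knockdown libraries were below all others (-2.16, SE 0.41, adjusted p = 5.17e-04 against control; -1.65, SE 0.41, adjusted p = 0.0144 against chylomicron), while a single high chylomicron library made that group overlap controls. Without that library, chylomicron replicate 1, SRBI knockdown against chylomicron was -1.22 (adjusted p = 0.064), and without SRBI knockdown replicate 2 it was -1.32 (adjusted p = 0.0718).

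Eif2ak2, encoding the kinase PKR that halts translation on double-stranded RNA, had 2206, 2179 and 2152 normalized counts in SRBI knockdown, 2239, 2228 and 2159 in chylomicron and 1939, 1960.4 and 2186 in control PMAC and passed no test. Isg20, an exonuclease gene, had 115, 99.2 and 133 normalized counts in SRBI knockdown, 203, 151 and 211 in chylomicron and 94.7, 125 and 126 in control PMAC. Chylomicron libraries were above both other groups, with log2 fold changes of -0.69 for SRBI knockdown against chylomicron (adjusted p = 0.0403) and 0.70 for chylomicron against control (adjusted p = 0.0144). The first call ended without any 1 of 5 libraries, all those compared except chylomicron replicate 2 (adjusted p from 0.0511 to 0.172), and the second without chylomicron replicate 3 or control replicate 1 (adjusted p from 0.057 to 0.0698).

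Of the 6 genes whose products act on viral particles, membranes or nucleotides, 5 were lower in SRBI knockdown than in chylomicron PMAC and 3 lower than in control PMAC. The shares of all genes lower in these comparisons were 5.59% and 15.5%, and the list is short. Mx1 encodes a dynamin-like GTPase that traps viral nucleocapsids, and many laboratory mouse strains carry a defective copy. It had 34.5, 36.0 and 21.8 normalized counts in SRBI knockdown PMAC, 110.4, 62.3 and 75.0 in chylomicron PMAC and 156, 159 and 168 in control PMAC. None of the groups overlapped, and all pairs differed: -1.39, SE 0.28, adjusted p = 0.00406 for SRBI knockdown against chylomicron, -2.38, SE 0.28, adjusted p = 4.03e-06 for SRBI knockdown against control and -0.997, SE 0.28, adjusted p = 0.0118 for chylomicron against control. Its relative Mx2 had 35.6, 24.01 and 7.51 normalized counts in SRBI knockdown PMAC, 149, 72.2 and 43.5 in chylomicron PMAC and 37.7, 26.2 and 27.9 in control PMAC. All chylomicron libraries were above the other 6, though they were spread widely. SRBI knockdown against chylomicron was -1.99, SE 0.52, adjusted p = 0.0208, and became -1.53 (adjusted p = 0.0939) without chylomicron replicate 1 and -1.38 (adjusted p = 0.0921) without SRBI knockdown replicate 3; chylomicron against control gave 1.34 and did not pass (adjusted p = 0.0604).

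Rsad2 and Cmpk2 are neighbours on chromosome 12; the first encodes viperin, which makes a chain-terminating nucleotide, and the second a mitochondrial nucleotide kinase. Rsad2 had 60.4, 80.8 and 65.4 normalized counts in SRBI knockdown PMAC, 254, 192 and 227 in chylomicron PMAC and 205, 210.5 and 165 in control PMAC. SRBI knockdown libraries lay below all others, and chylomicron and control libraries overlapped (-1.69, SE 0.20, adjusted p = 2.21e-05 for SRBI knockdown against chylomicron; -1.48, SE 0.20, adjusted p = 1.30e-05 for SRBI knockdown against control). In Cmpk2 the SRBI knockdown libraries were again below all others, with 64.7, 43.2 and 45.8 normalized counts in SRBI knockdown, 192, 113 and 71.7 in chylomicron and 167, 163 and 155 in control PMAC; its log2 fold changes were -1.19 (adjusted p = 0.0156) against chylomicron and -1.66 (adjusted p = 3.20e-04) against control. The first ended without chylomicron replicate 1, SRBI knockdown replicate 2 or SRBI knockdown replicate 3 (adjusted p from 0.0521 to 0.0675). Bst2, whose product tetherin holds budding virus at the membrane, had 4483, 4450.2 and 5095 normalized counts in SRBI knockdown, 5883, 6349 and 5683 in chylomicron and 4371, 4421 and 4627 in control PMAC. It was higher in chylomicron PMAC than in either other group, by modest amounts (-0.35 for SRBI knockdown against chylomicron and 0.42 for chylomicron against control). Trim30a, a mouse TRIM gene, passed no test.

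The remaining induced genes were higher in chylomicron than in control PMAC in all 5 of the 5 tested, and lower in SRBI knockdown than in chylomicron PMAC in all 5. The shares of all genes were 16.0% higher in the first comparison and 5.59% lower in the second, and this list too is short. Xaf1, a gene linked to cell death, had 595, 499 and 583 normalized counts in SRBI knockdown PMAC, 1155, 909 and 833 in chylomicron PMAC and 483, 496 and 438 in control PMAC (1.02, SE 0.12, adjusted p = 2.38e-06 for chylomicron against control). Parp9, an ADP-ribosyltransferase family gene, had 1301, 1375 and 1329 normalized counts in SRBI knockdown PMAC, 2109, 1805 and 1540.2 in chylomicron PMAC and 980.2, 1089 and 993 in control PMAC. Its 3 groups did not overlap, and the log2 fold changes against control were 0.82 for chylomicron (adjusted p = 1.66e-06) and 0.39 for SRBI knockdown (adjusted p = 0.00343). Rtp4, a receptor transporter gene, was higher in chylomicron than in control PMAC (0.44) and lower in SRBI knockdown than in control PMAC (-0.58, adjusted p = 7.93e-04). Parp14 and Ifi35 were higher in chylomicron than in control PMAC by 0.48 and 0.50 on the log2 scale; the Ifi35 difference of SRBI knockdown from chylomicron (-0.32) became -0.27 (adjusted p = 0.0676) without SRBI knockdown replicate 2. Ifi44 was too low to test, at 4.31, 1.6 and 0 normalized counts in SRBI knockdown, 0, 42.5 and 6.52 in chylomicron and 6.44, 19.9 and 7.6 in control PMAC. Several members have near-identical neighbours, such as Ifit3 beside Ifit3b, Oas1a beside other Oas1 copies, and the Trim30 genes, and how reads matching several copies were counted is not given in the sources used here.

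Other genes of the pathway were taken from whole lists. Among 49 tested of 57 further interferon-induced genes, 27 were lower and 0 higher in SRBI knockdown than in chylomicron PMAC, with 45 of 49 log2 fold changes negative, a median of -0.29, and examples in Lgals3bp (-0.59, SE 0.05, adjusted p = 6.72e-07), the guanylate-binding protein gene Gbp3 (-0.71, SE 0.09, adjusted p = 4.80e-05) and the membrane protein gene Ifitm3 (-0.41, SE 0.06, adjusted p = 1.76e-04). Against control, 23 of the 49 were higher and 7 lower in chylomicron PMAC, while 8 were higher and 17 lower in SRBI knockdown PMAC. Over all genes 16.0% were higher and 17.4% lower in chylomicron PMAC, and 14.7% higher and 15.5% lower in SRBI knockdown PMAC. The 7 lower with chylomicron and the 8 higher with SRBI knockdown are near those shares. Of 13 receptor-proximal signalling genes tested, Ifnar1 and Ifnar2 not among them, 0 were lower and 0 higher by limma, edgeR or DESeq2, and 2 were lower and 1 higher at an unadjusted p under 0.05, in SRBI knockdown against chylomicron PMAC; with the shares over all genes given above (5.59% lower, 5.60% higher), so short a list shows nothing by such a count. Socs1, a feedback inhibitor of JAK kinases, had 6448, 5504 and 6244 normalized counts in SRBI knockdown, 5972, 6201 and 5421 in chylomicron and 844, 429 and 556 in control PMAC. Both labelled groups were far above controls (SRBI knockdown 3.37, SE 0.15, adjusted p = 1.53e-11; chylomicron 3.32, SE 0.15, adjusted p = 1.76e-11), and their difference from each other was 0.048 (95% interval -0.28 to 0.37). Against control, 6 of the 13 were higher and 2 lower in chylomicron PMAC, and 5 higher and 3 lower in SRBI knockdown PMAC. The shares over all genes are those given with the 49 genes for these comparisons, and so short a list shows little by such counts. Of 6 interferon regulatory factor genes, Irf8 was higher (0.24) and Irf7 and Irf1 (-0.33) lower in SRBI knockdown than in chylomicron PMAC. Among the 18 tested genes of the routes that lead to interferon transcription, 1 was higher and 2 lower in SRBI knockdown than in chylomicron PMAC. Over all genes 5.60% were higher and 5.59% lower, and so short a list shows nothing by such a count either. The genes were the RNA receptor gene Tlr7 (0.45, adjusted p = 3.28e-05), the endotoxin co-receptor gene Cd14 (-0.44, adjusted p = 6.61e-05) and the adaptor gene Ticam1 (-0.30, adjusted p = 0.0314).

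In EC the members leaned upward with chylomicrons, and few passed the threshold after adjustment over all genes. Of the 31 tested 4 were higher and 0 lower than in control EC, where over all genes 5.16% were higher and 3.28% lower. At an unadjusted p under 0.05, 17 were higher and 0 lower, and edgeR and DESeq2 also called 0 lower. The log2 fold change was positive for 30 of 31, Mx1 being the exception at -0.22, and its median was 0.25, against -0.02 over all genes. In 19 of 31 members all 3 chylomicron libraries lay above all 3 control libraries, as in 13.1% of all genes. Oas3 had 389, 234 and 206 normalized counts in chylomicron EC and 166, 150.05 and 154 in control EC (0.76, SE 0.21, adjusted p = 0.0416). Ifit2 had 1070.0, 1253 and 1174 in chylomicron EC and 865, 721 and 966 in control EC (0.46, SE 0.11, adjusted p = 0.0232). Neither pair of groups overlapped. Parp14 had 4425, 3530.3 and 3705 normalized counts in chylomicron EC and 2794, 3214 and 2989 in control EC (0.37, SE 0.10, adjusted p = 0.0313), and Ifih1 had 2250.0, 2325 and 2423 in chylomicron EC and 1708, 1853 and 1960.4 in control EC (0.34, SE 0.08, adjusted p = 0.0192). The count of 4 rested on the variance model and on single libraries. It was 6 with DESeq2 and 6 with the replicate block. Without the empirical Bayes trend it was 0, with adjusted p of 0.0947 for Ifih1, 0.144 for Ifit2, 0.169 for Parp14 and 0.185 for Oas3. It was 0 without control replicate 1, 1 without control replicate 2, 2 without control replicate 3, 2 without chylomicron replicate 1, 11 without chylomicron replicate 2 and 5 without chylomicron replicate 3. Without control replicate 1, for example, Ifih1 gave 0.29 (adjusted p = 0.131) and Ifit2 0.48 (adjusted p = 0.0836). Over the single libraries whose removal ended a call, Oas3 had adjusted p from 0.109 to 0.138 and Parp14 adjusted p from 0.0522 to 0.179. Chylomicron replicate 2, without which Ifit2 gave 0.41 (adjusted p = 0.0513), was the lowest of its group in 18 of 31 members. Summed endothelial markers stood at 689 to 880 RPM in chylomicron EC and 898 to 976 RPM in control EC; their part in these differences was not tested.

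Isg15 had 2361, 1811 and 2319.5 normalized counts in chylomicron EC and 1525, 1706 and 2045 in control EC, groups that overlapped (0.30, adjusted p = 0.192). By limma the transducers and receptors also stayed short of the threshold, with adjusted p between 0.0869 and 0.631. Their log2 fold changes were 0.16 for Stat2, 0.093 for Irf9, 0.23 for Irf7, 0.25 for Ifnar1 and 0.20 for Ifnar2. DESeq2 on recovered reads called Ifnar1 higher, at 0.26 (adjusted p = 0.0231). Chylomicron EC lay wholly above control EC for Ifnar2, at 2654, 2689 and 2722 normalized counts against 2342, 2346 and 2331. Of 52 further interferon-induced genes tested 8 were higher in chylomicron EC and 0 lower, with 5.16% of all genes higher and 3.28% lower. Among the 8 were Gbp2 (0.94, SE 0.14, adjusted p = 0.00115) and the immunoproteasome genes Psmb8 (0.65, SE 0.11, adjusted p = 0.00191) and Psmb9 (1.00, SE 0.17, adjusted p = 0.00282). The factor gene Irf1, which responds more to interferon gamma, was higher as well (0.47, SE 0.08, adjusted p = 0.00347). Whether the chylomicron response of a member differed between EC and PMAC was not tested, since the tables were normalized separately.

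**Figure D3:**
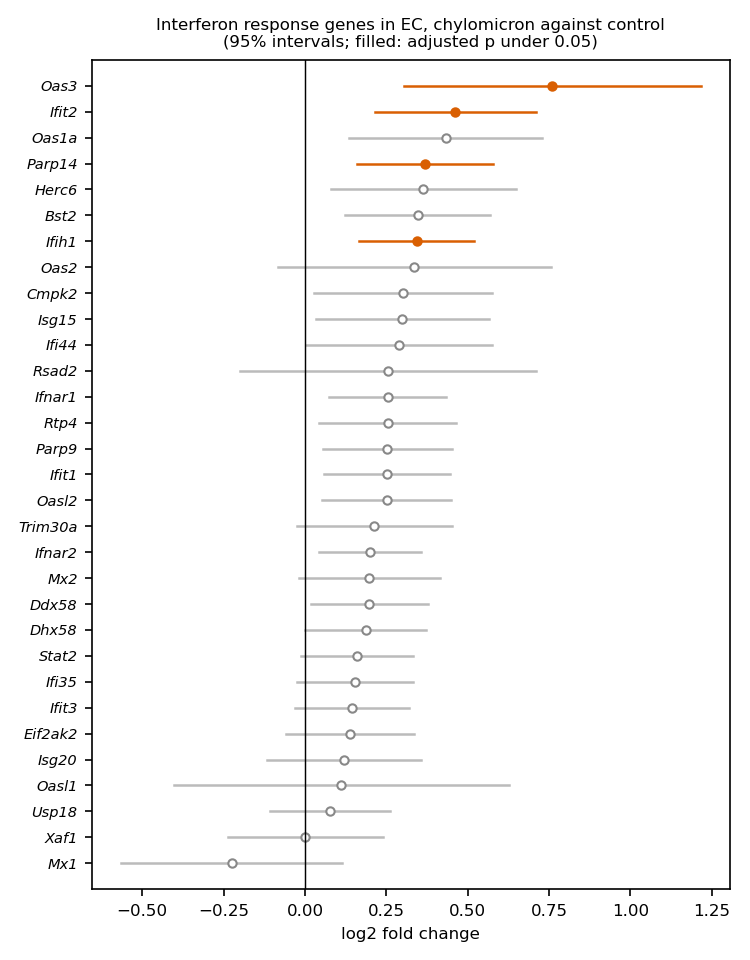
Log2 fold changes (horizontal axis) of the 31 EC members, chylomicron against control, with 95% intervals; filled points have an adjusted p under 0.05. All but Mx1 lie above 0, and only Oas3, Ifit2, Parp14 and Ifih1 are filled.

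Values of the SRBI knockdown EC libraries were normalized apart from the controls, so their recovered reads were expressed as RPM and set beside those of control EC with no test. In 25 of 31 members all 3 SRBI knockdown libraries lay below all 3 control libraries and in 1 they lay above, where 27.9% of all genes lay below and 34.9% above. The median log2 ratio of the members was -1.25, against 0.04 over all genes. Cmpk2 had 1.93, 1.67 and 1.76 RPM in SRBI knockdown EC, against 15.2, 14.9 and 15.0 RPM in control EC. Ifit3 had 7.05, 8.0 and 9.04 RPM in SRBI knockdown EC and 55.7, 56.3 and 62.6 RPM in control EC. The gap was wide in both, with log2 ratios of -3.07 and -2.86. Usp18 averaged 4.76 ± 0.918 RPM in SRBI knockdown EC, against 25.3 ± 1.14 RPM in control EC (SD, n = 3 each), Ifit1 9.82 ± 1.16 RPM in SRBI knockdown EC, against 48.7 ± 2.82 RPM in control EC, and Rsad2 1.23 ± 0.0686 RPM in SRBI knockdown EC, against 5.69 ± 1.42 RPM in control EC. Isg15 had 9.56, 13.1 and 12.7 RPM in SRBI knockdown EC and 34.5, 39.7 and 48.1 RPM in control EC. Stat2 averaged 57.2 ± 1.67 RPM in SRBI knockdown EC, against 138 ± 6.69 RPM in control EC, with a log2 ratio of -1.27. Isg20 went the other way, at 25.5, 25.8 and 27.8 RPM in SRBI knockdown EC and 8.85, 9.08 and 9.06 RPM in control EC. The 5 that overlapped were Ifit2, Ifnar1, Ifnar2, Mx1 and Oas3. Of the receptor genes, Ifnar1 averaged 103 ± 3.19 RPM in SRBI knockdown EC, against 111 ± 9.65 RPM in control EC, and Ifnar2 54.6 ± 4.04 RPM in SRBI knockdown EC, against 54.1 ± 0.992 RPM in control EC.

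Cell type markers differed between those libraries as well. The 12 endothelial markers summed to 139 to 148 RPM in SRBI knockdown EC and 898 to 976 RPM in control EC, with Kdr, Erg and Robo4 under 1 RPM in SRBI knockdown. Cldn5 was at 0 in SRBI knockdown EC, and it was under 1 RPM in control EC as well. The 5 mesothelial markers summed to 408 to 448 RPM in SRBI knockdown EC and 24.1 to 26.6 RPM in control EC, and the 8 fibroblast and mural markers to 4237 to 4637 RPM and 2733 to 3232 RPM in the same order. In addition, the libraries came in separate tables with different depths. Knockdown, cell make-up and table cannot be told apart here, and the part of the markers was not tested.

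**Figure D4:**
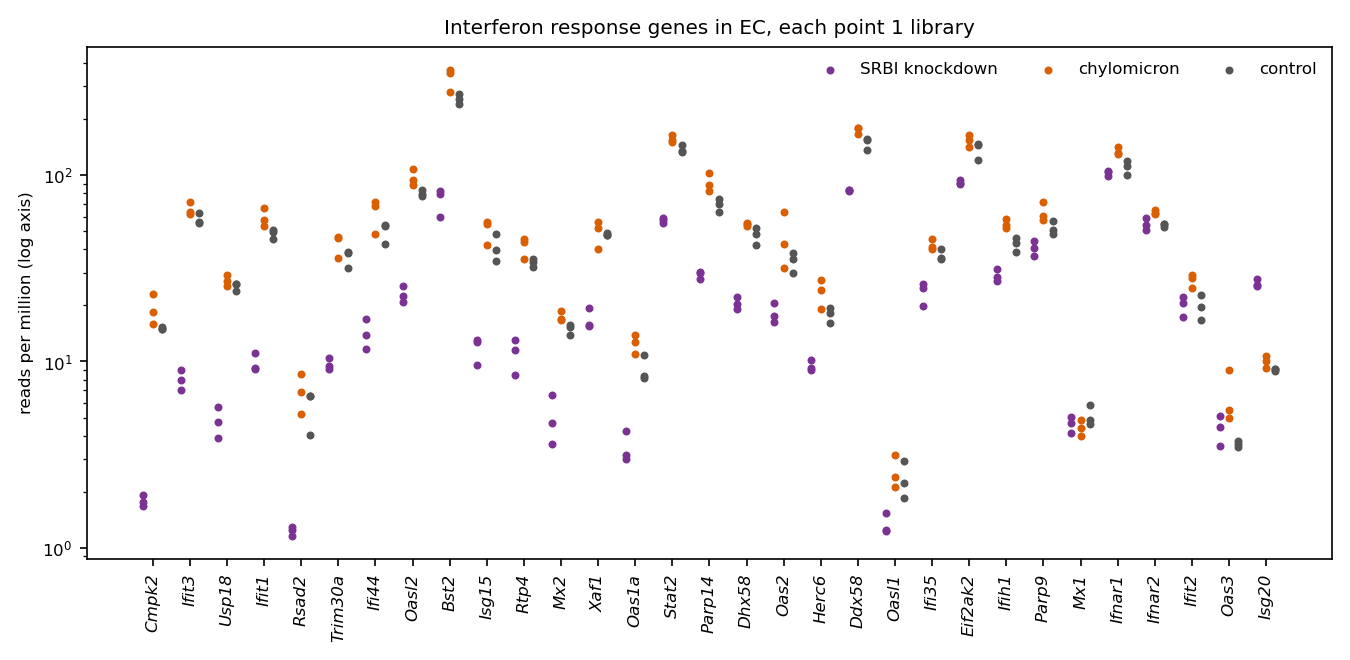
RPM (vertical axis, logarithmic) of the 31 members in each library of SRBI knockdown, chylomicron and control EC, ordered from the lowest ratio of SRBI knockdown to control on the left; each point is 1 library. From Cmpk2 to Parp9 all SRBI knockdown points lie below the control points, and Isg20 at the right end is the only member above them.

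The last values set control EC beside control PMAC. As RPM of control libraries, 22 of the 33 listed genes were higher in all 3 control EC libraries than in all 3 control PMAC libraries, 9 were higher in PMAC, and Rsad2 and Ifnb1 overlapped. Of all 16764 genes with a mean of at least 10 in either table, 58.7% were higher in EC in this way and 27.7% in PMAC, shares close to those of the members, so these counts are no result about the list and the values below are a description. Ifit3 had 55.7, 56.3 and 62.6 RPM in control EC and 2.03, 2.23 and 1.83 RPM in control PMAC. Ifi44 averaged 50.02 ± 6.11 RPM in control EC and 0.288 ± 0.189 RPM in control PMAC, and Mx2 15.0 ± 0.981 and 0.781 ± 0.156 RPM in that order (SD, n = 3 each). The PMAC side held the sensor Zbp1, at 0.165, 0.171 and 0.125 RPM in control EC and 25.9, 24.2 and 24.96 RPM in control PMAC, and both receptor genes, with Ifnar2 at 54.1 ± 0.992 RPM in control EC and 219 ± 11.4 RPM in control PMAC. The other PMAC-high members were Ifnar1, Oas1a, Parp14, Trim30a, Oasl1, Oas3 and Ifih1. These levels set across separately normalized tables were not tested.

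**Figure D5:**
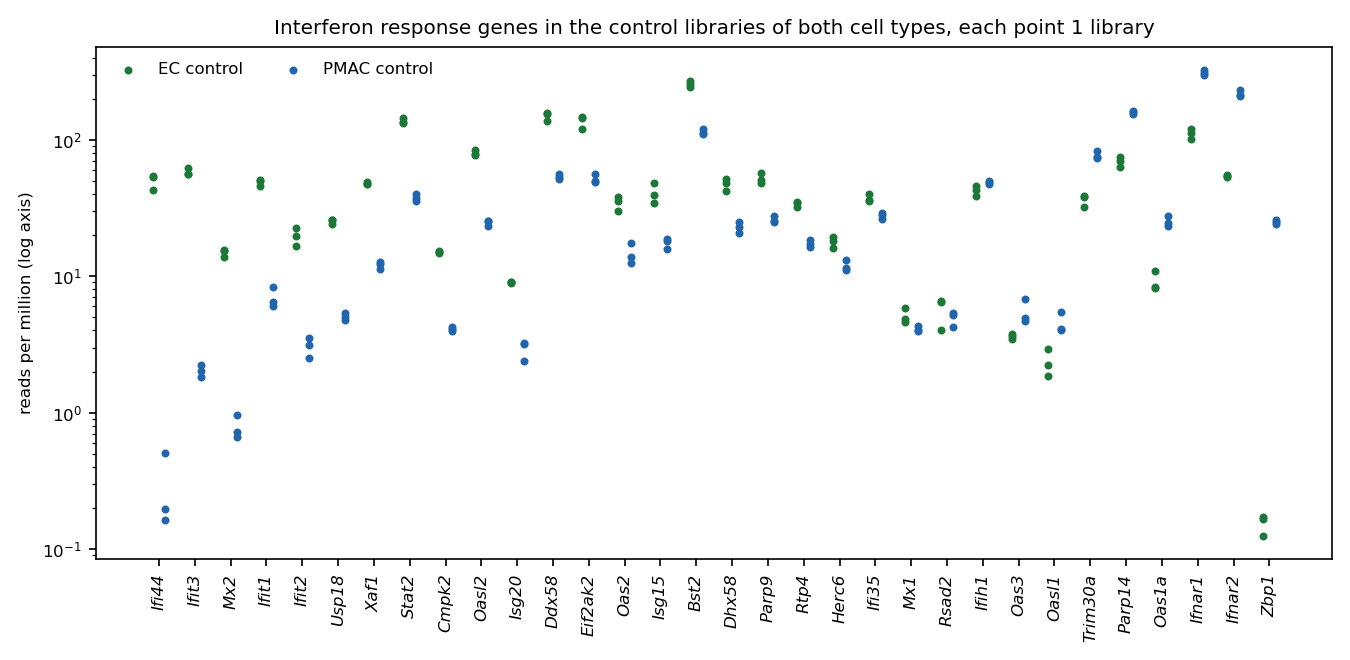
RPM (vertical axis, logarithmic) of the listed genes seen in all 6 control libraries, in the 3 control EC and the 3 control PMAC libraries, ordered by the ratio of EC to PMAC; each point is 1 library. Ifi44, Ifit3 and Mx2 at the left are far higher in EC, and Ifnar1, Ifnar2 and Zbp1 at the right are higher in PMAC.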

How the data were processed

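Per the labels, libraries were made with a stranded mRNA kit. The submitters' processing notes name the builds GRCm38 and mm10 and, as tools, STAR 2.7.3a, Subread 1.6.3, featureCounts and bcl2fastq; the strand setting is not given in the sources used here. The authors deposited 3 tables of normalized counts (a signal scaled by 1 factor per library). All nonzero values were whole multiples of 1 read within 0.01 reads, so reads and library totals could be recovered; on those reads edgeR called 20 members higher and 2 lower in chylomicron against control PMAC, and 4489 genes in all. Values were tested as log2(normalized count + 1), which understates changes of low genes, with limma 3.58.1 in R 4.3.3 (empirical Bayes with trend, two-sided) where a gene's mean reached 10. The 9 PMAC libraries formed a single fit of 3 groups and 6 EC libraries another, each with group as the only term. Benjamini-Hochberg adjustment ran over all genes of the table, with a threshold of 0.05. Each group had 3 libraries, and no 2 replicates were identical. RPM values were computed from recovered reads. Alternatives were other pseudocounts, no filter, no trend, library-total scaling, edgeR 4.0.16 and DESeq2 1.42.0 on recovered reads, a replicate block, only the libraries compared, and each replicate left out; leaving out chylomicron PMAC replicates 1 and 2 was chosen after seeing the data. Values per library are given for up to 6 members higher and 6 lower per comparison by size of change, for Isg15, the ligand, receptor and transducer genes, and for further members to complete each role; Oasl2, Eif2ak2, Isg20, Usp18, Bst2, Ddx58 and others outside this rule were added after their values were seen. The members and gene lists were chosen with earlier results of these data known. The method was tested on simulated counts. Results for 1 gene that the rule would name are not reported here. Small RNA libraries of EC media were not analysed here.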

Additional observations from a re-analysis of the deposited data

Results flagged for a closer look

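Ifit2 moved in opposite directions with chylomicrons in the 2 cell types: all 3 chylomicron libraries lay outside the range of all 3 controls, on opposite sides. Its log2 fold change was -0.98 in PMAC and 0.46 in EC. Both calls ended under several alternatives, as given above. Of 32 genes checked in this way (30 members with Irf7 and Irf9) 1 showed it, and of all 12461 genes tested in both cell types 5.19% did. The count is therefore no result about the members. The difference between the cell types was not tested. Groups of 3 libraries are too small for a check of single outlying libraries.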

How the results depend on the processing

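In PMAC, chylomicron against control, 16 to 20 members were higher over all alternatives; 1 member in place of 2 was lower with no filter, without trend and with the replicate block, and 1 to 3 with a replicate left out; where it was 1, Ifit2 had lost its call. For SRBI knockdown against control, 8 members in place of 5 were higher when only the 6 libraries compared were fitted. For SRBI knockdown against chylomicron, 14 members were lower without trend, with 602 genes called in place of 1525, and 14 and 618 without chylomicron replicates 1 and 2; leaving out 1 replicate gave 17 to 23 members and 822 to 1798 genes, and 0 members were higher throughout. In EC, 0 members were higher without trend, with 587 genes called in place of 1317, and 0 to 11 members and 744 to 1549 genes with 1 replicate left out. The causes were not tested. The SRBI knockdown EC count of 26 members without overlap was 26 to 27. Among single genes 717 values kept direction and side, 43 lost and 3 gained a call, and 2 changed sign: Stat2 in chylomicron against control PMAC (-0.068 with library-total scaling) and Irf9 in SRBI knockdown against control PMAC (-0.013 with that scaling), neither past the threshold. By edgeR all 21, 14, 24 and 4 member calls of the 4 tested comparisons were kept. Replicate numbers did not pair the libraries (correlations of same-numbered libraries from -0.10 to 0.07 in PMAC and from -0.16 to 0.17 in EC); with the replicate block 21, 14, 22 and 6 members were called. Depth limits Ifnb1 and the other ligands, at or near 0 reads.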
